A study of Mus musculus with 20 samples.

Results

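The genes described here carry a cell through G2 and mitosis. They are 50 genes, named by symbol, that encode the kinases and cyclins of mitotic entry, the anaphase-promoting complex and its targets, the spindle checkpoint, the kinetochore, the spindle motors, the proteins of cytokinesis and the condensins. All 50 of 50 were among the 30199 gene names of the array, which has 39429 probes, and where a gene had several the brightest over all arrays stood for it. The choice rested on symbols, and it was made with earlier results of these data known. Of the 50 probes, 48 belonged to the 22264 probes that were tested.

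The study sorted CD4 T-cell fractions from the draining peripheral lymph nodes (pLN) of mice given keyhole limpet hemocyanin with Alum under the skin, and from the Peyer's patches (PP) of the gut, for which the labels name no immunisation. All animals were B6.Cg-Foxp3<tm1Mal>, a strain in which green fluorescent protein reports Foxp3, aged 8 to 14 weeks, of both sexes, and cells of several mice were pooled for each array. By the study's methods all fractions were sorted as B220- CD4+ cells. Naive T cells were taken as GFP-PD1-GL7-, regulatory T cells (Treg) as GFP+PD1-GL7-, follicular helper T cells (TFH) as GFP-PD1hi cells and follicular regulatory T cells (TFR) as GFP+PD1hi cells with or without GL7. The TFH cells of pLN were GL7+, and those of PP were sorted into GL7+ and GL7- cells. Day 12 post immunisation (d12 p.i.) gave naive, TFH, Treg and TFR cells of pLN with 2 arrays each, day 25 (d25) gave the same 4 fractions with 1 array each, and PP gave TFH GL7+, TFH GL7-, Treg and TFR cells with 2 arrays each, which makes 12 groups on 20 arrays. Every array held sorted cells pooled from several mice, so that p-values measure the spread between such arrays and not between single mice. The 2 arrays of a group lay on different slides and had different RNA input, so that this spread also holds those differences.

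Mitosis is driven by cyclin-dependent kinase 1 (CDK1) with cyclins A and B, and ends when the anaphase-promoting complex (APC) with its activator CDC20 marks cyclin B and securin for destruction. Genes for these steps are silent in resting cells, where the DREAM complex holds them off, and are switched on in S and G2 phase by MuvB together with B-MYB and FOXM1. These complexes reach the DNA through the cell cycle genes homology region (CHR), TTTGAA or TTCGAA, and act with NF-Y, which binds the CCAAT box. Resting lymphocytes hold little mRNA of these genes, and dividing lymphocytes hold much, so that the mRNA is widely read as a sign of cycling cells. In bulk RNA a larger number of cycling cells and more of the mRNA per cell cannot be told apart.

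The promoters are shown because these motifs are what most members have in common apart from their function. RefSeq windows from 250 bases before to 50 bases after the start of transcription (GRCm38.p6) were at hand for 43 members, with 45 windows in all. The 150 bases before the start are printed for 6 members, each 5′ to 3′ on the strand of its gene, and capitals mark CCAAT and the CHR forms TTTGAA and TTCGAA on either strand. Cdc20 (chr4:118437344-118437493, minus strand) encodes the APC activator, Ube2c (chr2:164769779-164769928, plus strand) the ubiquitin-conjugating enzyme of the APC, Top2a (chr11:99024190-99024339, minus strand) topoisomerase II, Kif11 (chr19:37376232-37376381, plus strand) the kinesin that pushes spindle poles apart and Mki67 (chr7:135716380-135716529, minus strand) the antigen Ki-67. Pttg1 (chr11:43425982-43426131, minus strand), which encodes securin, is shown as a member without either motif in the printed bases.
Cdc20: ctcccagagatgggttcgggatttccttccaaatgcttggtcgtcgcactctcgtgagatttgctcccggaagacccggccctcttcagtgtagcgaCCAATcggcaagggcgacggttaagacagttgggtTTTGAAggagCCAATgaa
Ube2c: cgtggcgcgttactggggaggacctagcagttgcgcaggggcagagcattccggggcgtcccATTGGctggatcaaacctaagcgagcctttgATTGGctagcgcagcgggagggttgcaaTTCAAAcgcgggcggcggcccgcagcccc
Top2a: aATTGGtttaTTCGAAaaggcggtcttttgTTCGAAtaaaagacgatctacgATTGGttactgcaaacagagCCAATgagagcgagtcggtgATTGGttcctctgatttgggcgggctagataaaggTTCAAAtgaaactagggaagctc
Kif11: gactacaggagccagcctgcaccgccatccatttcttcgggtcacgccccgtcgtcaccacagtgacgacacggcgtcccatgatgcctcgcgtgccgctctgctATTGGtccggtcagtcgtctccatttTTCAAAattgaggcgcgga
Mki67: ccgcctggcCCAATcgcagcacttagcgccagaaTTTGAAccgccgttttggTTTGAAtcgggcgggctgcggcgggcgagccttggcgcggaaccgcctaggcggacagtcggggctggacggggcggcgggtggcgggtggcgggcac
Pttg1: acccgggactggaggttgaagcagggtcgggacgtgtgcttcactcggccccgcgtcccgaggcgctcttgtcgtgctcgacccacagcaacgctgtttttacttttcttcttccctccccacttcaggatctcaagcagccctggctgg

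A CCAAT box stood in 36 of the 45 windows (80%), against 37.4% of all 32851 RefSeq windows of the same length. TTTGAA was found in 34 windows (75.6%, against 17.9%) and TTCGAA in 5 (11.1%, against 1.56%), both strands searched. Either form of the CHR together with a CCAAT box occurred in 33 windows (73.3%, against 7.52%), and at least 2 CCAAT boxes in 22 (48.9%, against 11.7%). Neither motif was found in the windows of Nuf2, Nusap1, Mad2l1, Pttg1 and Birc5. A match is only a run of letters and shows no binding in these cells, and Top2a, with 6 CCAAT boxes and 4 CHR elements in its window, and Birc5, with none, followed the mean of the other members with r = 0.996 and 0.99 over the 20 arrays.

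Arrays detected 42.97 to 58% of the probes, and none was saturated. Local background had a median of 24 to 78 on 19 arrays and of 268 on the second TFR array of pLN at d12. The arrays lay on 5 slides, each holding 4 arrays of 1 tissue and day, so that PP and pLN, or d25 and d12, were never on the same slide. Foxp3 read 35130 and 29850 in Treg cells and 29930 and 22050 in TFR cells of pLN at d12, against 94.75 and 57.15 in TFH cells, and Cxcr5 was highest in TFH cells. On the first PP slide 13 of 13 B-cell markers were detected on every array and their summed intensity was 69259 to 477817, against 12088 to 29242 on the second PP slide and 8335 to 55132 on pLN arrays. Results of PP cells are therefore given for each slide as well.

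Normalised intensity is used throughout as the level of one probe, with a floor of 20, and levels of different probes are not compared. Differences are log2 differences between group means, and a gene was called where limma's moderated test, adjusted over all 22264 probes, gave an adjusted p under 0.05 and the difference was at least 1. Of the 50 members, 26 were detected on all 20 arrays and 2, Aurkb (Aurora B kinase) and Cenpf (a kinetochore protein), on none. Probes were tested where both arrays of a group detected them. For Cdk1, Cdc25c, Ttk, Kif2c, Kif4, Ckap2 and Ncapg this held only in groups of TFH or TFR cells. Their place among the tested probes thus rested on groups in which they were higher. An F test over the 12 groups called 41 of the 50 members, against 17.3% of all tested probes. Apart from the 2 untested genes, those not called were Cdk1, Cdc25b, Pttg1, Cenpa, Hmmr, Racgap1 and Smc4.

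The members largely moved as 1 unit. The first principal component of their centred log2 values held 94% of the variance, and the correlation of a member with the mean of the other members over the 20 arrays was at least 0.95 for 35 and at least 0.9 for 42. Top2a followed that mean with r = 0.996. Only 5 members stayed under 0.6, namely Pttg1 (-0.532), Smc4 (-0.347), Cenpf (0.414), Aurkb (0.435) and Kif23 (0.553), and these r values over 20 arrays of 12 groups describe shared group differences, not independent samples. The highest mean level was that of pLN TFR cells at d12 for 45 of the 48 tested members, the exceptions being Cdc25b (PP TFH GL7+ cells), Smc4 (PP Treg cells) and Pttg1 (pLN Treg cells at d25). The lowest level was in naive pLN cells at d25 for 33 of the 48, and 6 others had the same lowest level in several groups.

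**Figure D1:**
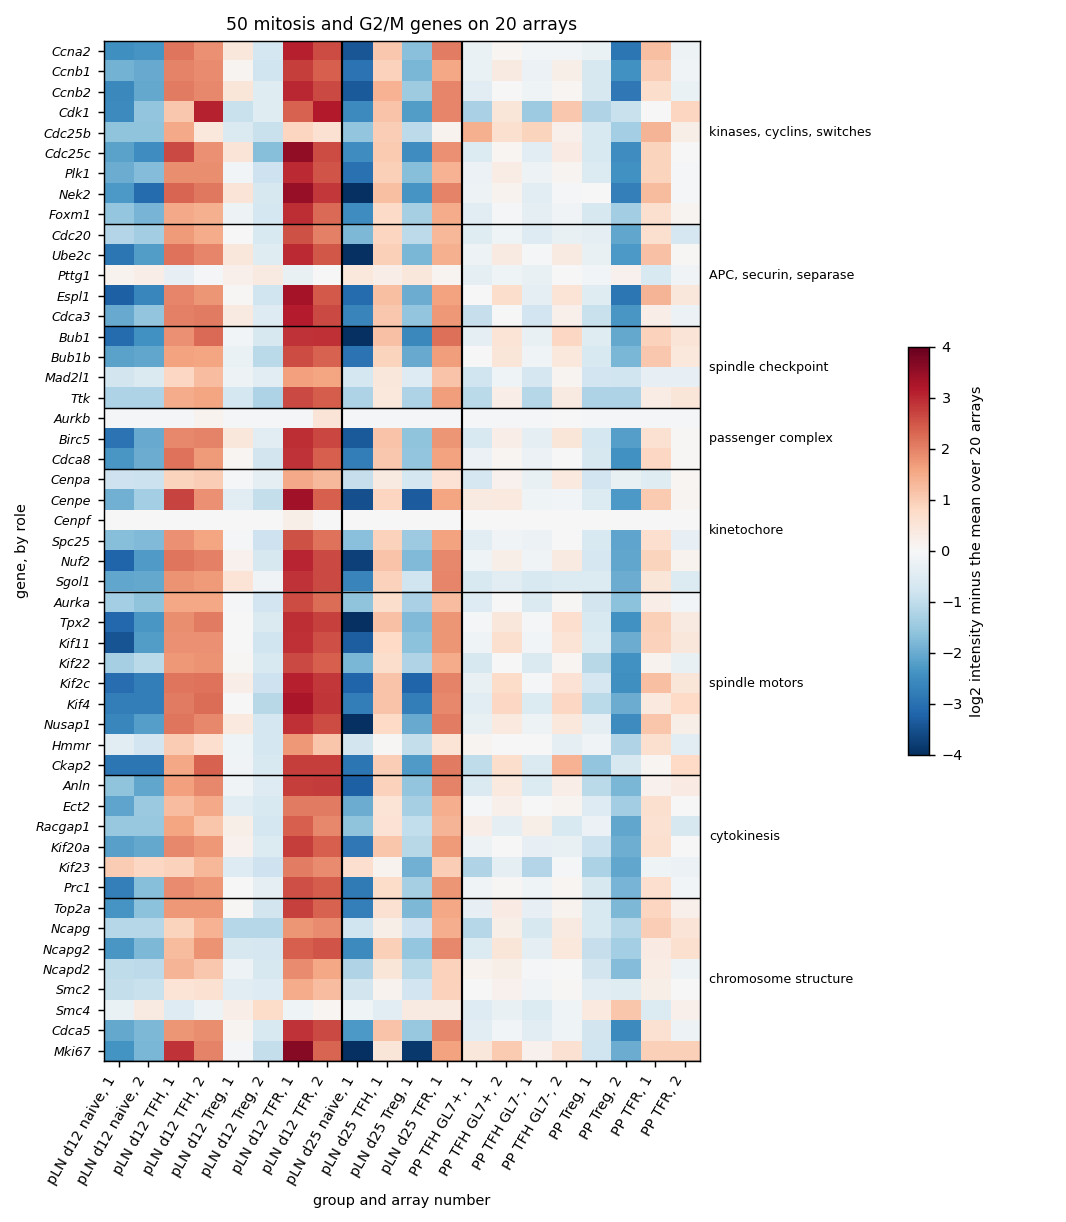
Log2 intensity of the 50 genes (rows, by role) on each of the 20 arrays (columns, by group), each gene centred on its mean over all arrays, with red above and blue below that mean. Both pLN TFR arrays of d12 are the darkest red columns, the naive array of d25 is the darkest blue, and Pttg1, Smc4, Aurkb and Cenpf show little or no such pattern.

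The mean of the centred log2 values over the 50 members gives the order of the groups. It was 2.30 ± 0.21 (SD, n = 2) in pLN TFR cells and 1.57 in pLN TFH cells at d12, where both TFH arrays were at 1.58 and 1.57. Next came d25 TFR (1.46, n = 1) and d25 TFH cells (0.76, n = 1), then PP TFR cells at 0.33 ± 0.34, PP TFH GL7- cells at -0.06 ± 0.36 and PP TFH GL7+ cells at -0.07 ± 0.38 (SD, n = 2 each). pLN Treg cells of d12 followed at -0.33 ± 0.43 and PP Treg cells at -1.17 ± 0.79 (SD, n = 2 each), then d25 Treg cells (-1.52, n = 1), naive cells of d12 (-1.75 ± 0.17, n = 2) and naive cells of d25 (-2.33, n = 1). Neighbours in this order overlapped in their arrays from PP TFR cells down to naive cells of d12 wherever both groups had 2 arrays, whereas the pLN TFR and TFH arrays of d12 lay apart from each other and above all the rest.

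The first comparison asks how TFH cells of pLN differ from naive T cells at d12 p.i. Almost the whole machinery of mitosis was higher in TFH cells: 45 of 50 members were called higher and 0 lower, against 9.27% and 5.48% of all tested probes. The median difference of the members was 3.74 on the log2 scale, against -0.09 for all tested probes. On the slide of the first arrays the median was 3.84 and on that of the second arrays 3.63, and leaving out any 1 of the 4 arrays left 43 or 44 called.

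Among the 9 kinases, cyclins and switches of mitotic entry, all 9 rose. Nek2, a kinase that splits the centrosomes, read 63.40 and 37.01 in naive cells and 1592 and 1370 in TFH cells, and naive cells were not well above background. The difference was 4.93 ± 0.78 (SE, adjusted p = 0.001296), or at least 19.3-fold. Cdc25b, a phosphatase that activates CDK1, had the smallest change of this role, from 2183 and 2203 to 19270 and 9087 (2.59 ± 0.47, adjusted p = 0.003112). Foxm1, the transcription factor of the G2/M programme, read 96.43 and 77.01 in naive cells and 807.2 and 757.4 in TFH cells. In each of these genes both TFH arrays lay above both naive arrays.

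Of the 5 genes of the APC, separase and securin, 4 rose. Espl1, the separase that cuts cohesin at anaphase, stood at 20 and 31.72 in naive cells, which is not well above background, and at 752.2 and 657.8 in TFH cells (4.80 ± 0.71, adjusted p = 0.0008376, at least 11.4-fold). Cdc20 read 2546 and 2211 in naive cells and 18660 and 16030 in TFH cells. Pttg1, which encodes the inhibitor that holds separase back, went the other way without passing the test: 14090 and 15390 in naive cells, 10100 and 12410 in TFH cells (-0.39, adjusted p = 0.2613). The inhibitor and its enzyme thus had opposite signs, and a second probe of Pttg1, whose r with the first was 0.012, differed by 0.24.

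All 4 checkpoint genes rose. Bub1, a kinase that recruits the checkpoint to kinetochores, went from 38.80 and 60.26 to 1159 and 1561 (4.80 ± 0.55, adjusted p = 0.0001636, at least 21.9-fold, since naive cells were not well above background). Mad2l1, which holds CDC20 inactive, had a smaller change from 2539 and 2784 to 7438 and 9769 (1.68 ± 0.28, adjusted p = 0.001619). The 2 measured genes of the chromosomal passenger complex rose too, with Birc5 (survivin) at 4.44 ± 0.55 (adjusted p = 0.0002747) and Cdca8 (borealin) at 4.09.

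At the kinetochore 5 of 6 genes rose, the other being Cenpf. Nuf2, a subunit of the NDC80 complex that grips microtubules, read 43.01 and 83.56 in naive cells and 1748 and 1606 in TFH cells (4.80 ± 0.50, adjusted p = 8.76e-05, at least 26.6-fold). Cenpa, the centromeric histone, was well above background in every group and rose from 3171 and 3141 to 10570 and 11380 (1.80 ± 0.33, adjusted p = 0.003282). The spindle motors and assembly factors rose in 9 of 9 cases. Kif2c, a kinesin that takes microtubules apart, had the largest fitted difference, from 22.68 and 27.39, which is not well above background, to 812.6 and 831.8 (5.04 ± 0.58, adjusted p = 0.0001772, at least 13.4-fold). Kif4, a chromosome-bound kinesin, and Ckap2, a microtubule-binding protein, were at the floor of 20 on both naive arrays and at least 9.84-fold and 9.23-fold higher in TFH cells. Hmmr, a spindle protein, showed the smallest change of this role (1.43 ± 0.42, adjusted p = 0.03635).

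Cytokinesis genes rose in 5 of 6 cases, led by Prc1, which bundles the microtubules of the central spindle (4.05 ± 0.43, adjusted p = 0.0001049). The exception was Kif23, the kinesin of the midbody, with 811.8 and 717.7 in naive cells and 763.2 and 1008 in TFH cells (0.20, adjusted p = 0.8172). Among the 8 genes of condensin, cohesion and chromosome structure, 7 rose. Mki67 read 447.3 and 669.5 in naive cells and 17400 and 9260 in TFH cells (4.54 ± 0.55, adjusted p = 0.0002354). Smc4, an ATPase shared by both condensins, did not pass the test (-0.41, adjusted p = 0.484), although its partner Smc2 rose from 1116 and 1172 to 3147 and 3283 (1.49 ± 0.16, adjusted p = 0.0001097). The 45 members that rose came from all 8 roles, and the 3 tested members that did not were Pttg1, Kif23 and Smc4.

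**Figure D2:**
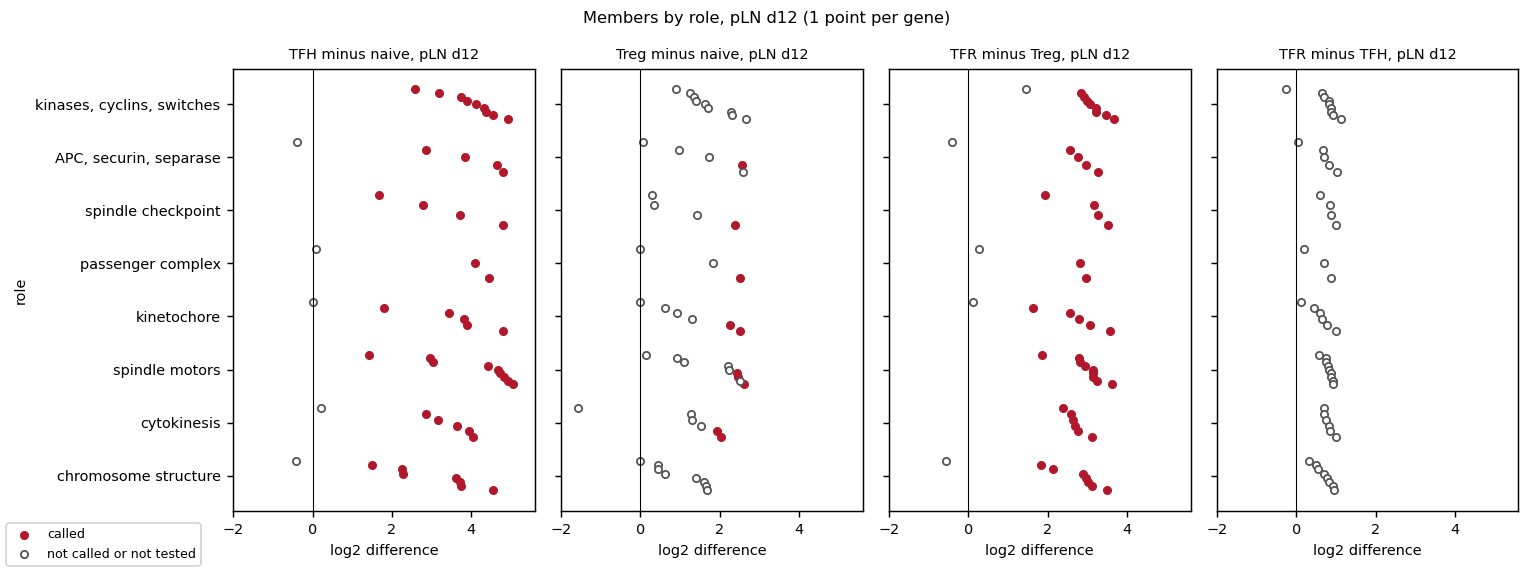
Log2 differences of the 50 genes (1 point each) by role in 4 comparisons of pLN cells at d12, with filled points for called genes and open points for genes that were not called or not tested. TFH minus naive (median 3.74) and TFR minus Treg (median 2.92) lie far to the right of 0, Treg minus naive (1.48) is between, and TFR minus TFH (0.80) is to the right of 0 with no filled point.

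Treg cells without PD1, from the same nodes, were above naive cells to a smaller extent. 10 members were called higher and 0 lower, against 2.86% and 0.898% of tested probes, with a median of 1.48 over the members and -0.03 over all tested probes. An unadjusted p under 0.05 was reached by 34, against 11.2% of tested probes. The called genes were Ube2c (2.55), Bub1 (2.38), Birc5 (2.50), Nuf2 (2.51), Sgol1 (2.25), Tpx2 (2.46), Kif11 (2.44), Kif2c (2.62), Kif20a (1.92) and Prc1 (2.04). None of the 9 kinases and cyclins and none of the 8 chromosome structure genes passed. All 9 kinases and cyclins were nevertheless above 0 (median 1.62), as were 7 of the 8 chromosome structure genes (median 1.01), against 44.4% of all tested probes. Whether roles differ was not tested. Ube2c read 408.0 and 642.6 in naive cells and 4132 and 2166 in Treg cells, and Mki67 read 2284 and 1211 in Treg cells. In both genes the first Treg array was the higher, and over the members the median difference was 1.88 on the first slide and 1.03 on the second. Leaving out the first naive array, or the first Treg array, left 0 called, and leaving out the second of either left 4. With the slide as a fixed block 22 were called, and with the slide as a random block 32.

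Kif23 set itself apart in this comparison, with 285.9 and 229.9 in Treg cells below both naive arrays (-1.57 ± 0.40, adjusted p = 0.06234). It then rose from Treg to TFR cells like the other members, as given below. Its r of 0.553 with the other members thus goes with a naive level near that of TFH cells, in both arrays at d12 and in the naive array at d25 (641.3, against 441.8 in TFH cells).

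The step from Treg to TFR cells in pLN at d12 repeated the pattern of the helper branch. 45 of 50 members were called higher and 0 lower, against 5.79% and 2.56% of tested probes, with a median of 2.92 over the members and -0.08 over all tested probes. The 2 comparisons share no array, but their arrays lay on the same 2 slides and the calls shared the error estimate of 1 fit. In both, 44 members were called, which is 44 of 45 in each. Not called here were Cdc25b (1.46, adjusted p = 0.07916), Pttg1 (-0.42) and Smc4 (-0.55). Cdc25b was the only member called from naive to TFH but not from Treg to TFR, and Kif23 the only one called the other way round; whether either differs between the steps was not tested.

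Mki67 read 29510 and 11860 in TFR cells (3.49 ± 0.55 above Treg cells, adjusted p = 0.002768), and both arrays lay far above the Treg arrays. Cdc25c, another activator of CDK1, went from 158.7 and 34.65, the latter not well above background, to 1297 and 687.6 (3.67 ± 0.77, adjusted p = 0.012). Ttk, the MPS1 kinase that starts checkpoint signalling, was not well above background in Treg cells (29.30 and 20) and read 297.0 and 255.2 in TFR cells (3.51 ± 0.49, adjusted p = 0.001572, at least 5.36-fold). Like Cdc25c, it entered the test only through groups of TFH or TFR cells. These genes belong to mitotic entry and to the checkpoint, and the motors moved alike. Kif4, whose second Treg array was not well above background, rose by 3.62 ± 0.56 (adjusted p = 0.002469), and Cenpe, the kinetochore motor, by 3.58 ± 0.57 (adjusted p = 0.003059). Kif23 rose to 1689 and 1501 (2.63 ± 0.40, adjusted p = 0.002416). The change with the smallest error was that of Smc2, from 1605 and 1527 to 6058 and 5056 (1.82 ± 0.16, adjusted p = 0.0002027), and the arrays of each group lay close together.

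The count of 45 fell to 24 without the second Treg array and to 28 without the first TFR array, and the median then was 2.48 and 2.71. Within the slides it was 2.66 and 3.11. The second TFR array is the one with a local background of 268, and without it 37 members were called with a median of 3.06. The sum of 13 B-cell markers was 26294 and 16877 in TFR cells and 18731 and 30156 in Treg cells. In naive and TFH cells this sum was 26711 and 24137, and 55132 and 11953. That of 7 germinal centre B-cell markers was 633 and 770 in TFR, 470 and 873 in Treg, 719 and 772 in naive and 3440 and 3275 in TFH cells, where 6 and 1 of the 7 were detected. The sum of 4 plasma-cell markers was 24910 and 25850 in TFR, 36044 and 41965 in Treg, 30202 and 35028 in naive and 89673 and 38862 in TFH cells. The germinal centre and plasma-cell sums were thus higher in TFH than in naive cells on both slides, with 1 germinal centre marker detected on the second TFH array. The sum of 13 B-cell markers was higher in TFH cells on the first slide and lower on the second. The part of such cells in that comparison was not tested.

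TFR cells stood above TFH cells in nearly every member at d12, but by an amount that did not pass the test. 0 members were called in either direction, against 2.81% of tested probes called higher and 2.2% called lower, and 5 had an unadjusted p under 0.05 by limma, against 15.8%. The median difference was 0.80 (0.01 over all tested probes), and 49 of 50 members were above 0, against 50.9% of all tested probes. In 42 both TFR arrays were above both TFH arrays, against 22.3% of all tested probes. The members largely moved together, so that such counts, here and in other comparisons, are not counts of independent observations. Foxm1 had the largest difference, with 2193 and 1355 in TFR cells (1.14 ± 0.33, adjusted p = 0.08556). Smc2 had an adjusted p of 0.01636 with a difference of 0.78 ± 0.16, which is under the limit of 1. Cdc20 read 33540 and 23220 in TFR cells, above both TFH arrays. The exception was Cdc25b, with 12250 and 10170 in TFR cells and 19270 and 9087 in TFH cells (-0.25, and 0.30 without the first TFH array), where the groups overlapped. The median was 0.92 on the first slide and 0.64 on the second, and with normexp background correction, or with the slide as a fixed or random block, 1 member was called.

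**Figure D3:**
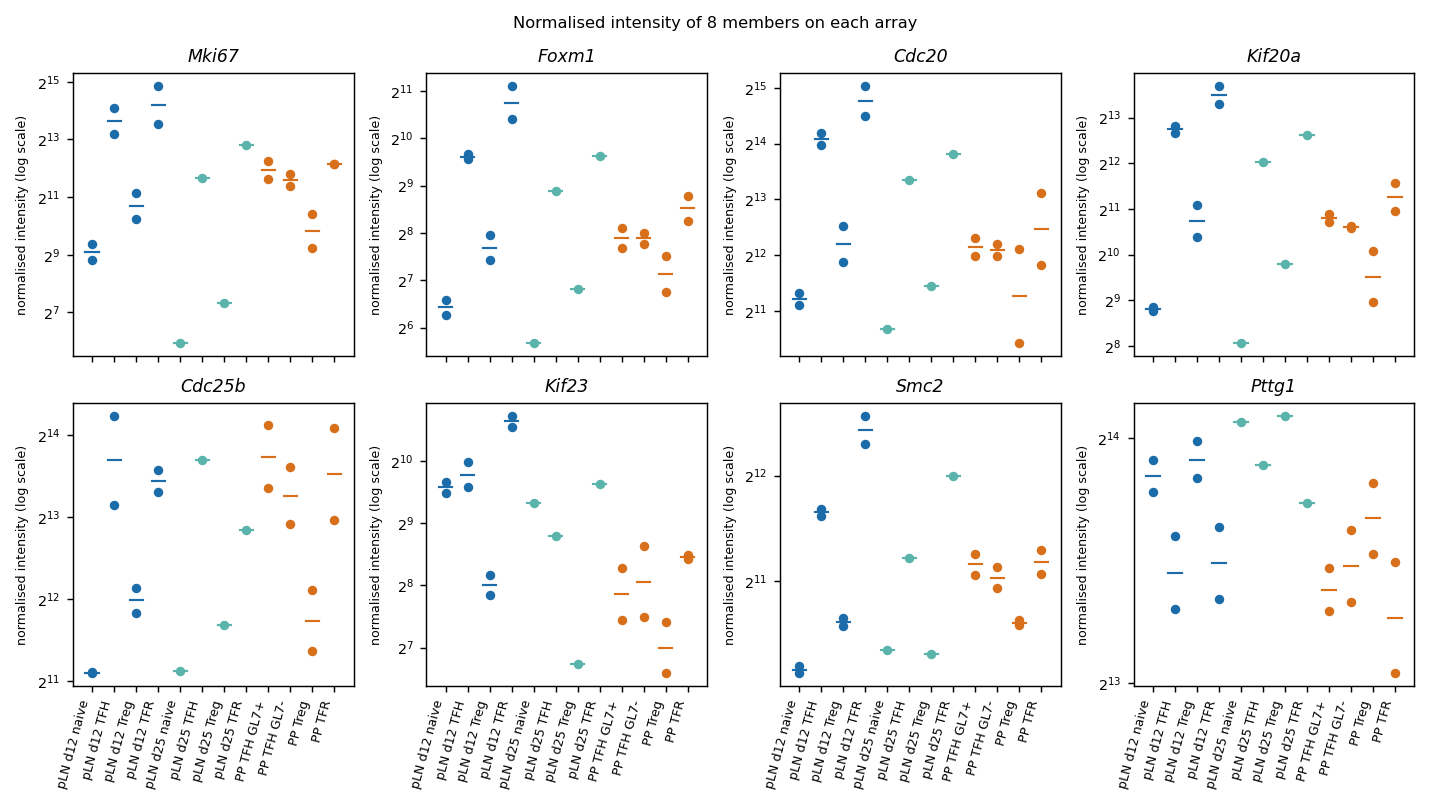
Normalised intensity (log2-spaced axis, a separate range for each gene) of 8 members on each array, with points for arrays and short lines for the geometric mean of a group, in blue for pLN at d12, turquoise for pLN at d25 and orange for PP. Mki67, Foxm1, Cdc20 and Kif20a are all highest in pLN TFR cells at d12, Cdc25b is as high in PP TFH GL7+ cells (17840 and 10470) as in pLN TFH cells, and Kif23 is high in naive cells. Within each tissue and day, means of Pttg1 are lower in TFH and TFR than in Treg and any naive cells, without a called difference.

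At d25 the same order held in the single array of each fraction, so that no spread within a fraction could be measured at that day. Within the d25 slide the median difference of the members was 3.57 between TFH and naive cells, 0.78 between Treg and naive cells, 3.23 between TFR and Treg cells and 0.77 between TFR and TFH cells. In TFR minus Treg, 46 members differed by at least 1 on the log2 scale. These values were close to those of the d12 slides for the follicular steps and lower for Treg minus naive. At d25 only 27 members were detected in naive and 31 in Treg cells, which limits the precision of the value for Treg minus naive.

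All 4 fractions were lower at d25 than at d12 in most members, and none of these differences passed the test. The median was -0.48 in naive, -0.85 in TFH, -1.25 in Treg and -0.86 in TFR cells, and 40, 47, 46 and 48 members were below 0. Of all tested probes, 52.6, 52.5, 48.8 and 49.8% were above 0. The naive and Treg medians include members that were not well above background at d25. Called members numbered 0 in each, where limma gave 4, 1, 16 and 2 members with an unadjusted p under 0.05, against 1.16, 2.85, 3.5 and 3.65% of tested probes. In TFH cells 0.0225% of tested probes were called higher, and in every fraction 0 to 0.00898% were called lower. Mki67 read 60.93 in naive cells at d25, which is not well above background (-3.17, adjusted p = 1), 3256 in TFH cells (-1.96, adjusted p = 1), 160.5 in Treg cells (-3.37, adjusted p = 0.3699) and 7226 in TFR cells (-1.37, adjusted p = 1). The d25 arrays lay on 1 slide of their own, so that day and slide cannot be told apart.

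In PP the members followed the same direction from Treg to TFR cells with a smaller span. 27 of 50 were called higher and 0 lower, against 6.23% and 3.02% of tested probes, with a median of 1.69 (-0.05 over all tested probes), and 26 of the 27 were also called in pLN at d12. By role, those called were 4 of 9 kinases and cyclins (median 1.96), 6 of 9 spindle motors (1.96), 5 of 6 cytokinesis genes (1.5), 6 of 8 chromosome structure genes (1.61), 2 of 4 checkpoint genes (1.81), 2 of 6 kinetochore genes (1.39), 1 of 3 passenger genes (1.79) and 1 of 5 APC genes (1.63). The medians lay close together, and whether roles differ was not tested. Espl1 went from 139.0 and 26.13, the latter not well above background, to 499.9 and 267.1 (2.6 ± 0.71, adjusted p = 0.0399). Kif2c, whose second Treg array was likewise not well above background, rose by 2.43 ± 0.58 (adjusted p = 0.02215), Tpx2, which activates Aurora A on the spindle, by 2.16 ± 0.54 (adjusted p = 0.02704), and Mki67 from 1368 and 596.4 to 4542 and 4524 (2.33 ± 0.55, adjusted p = 0.02004). Smaller errors were seen for Kif20a, a kinesin of the central spindle (1.74 ± 0.36, adjusted p = 0.01102), and Bub1b, a checkpoint protein (1.97 ± 0.42, adjusted p = 0.01224).

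Cdc20, with 4435 and 1365 in PP Treg cells and 8917 and 3599 in PP TFR cells, overlapped and was not called (1.2, adjusted p = 0.2136). Cenpa differed by 0.34, and Smc4 was lower in TFR cells (14100 and 23600) than in Treg cells (26900 and 44070) without passing the test (-0.92, adjusted p = 0.1197). On each slide 46 members were higher in TFR than in Treg cells, and 41 were higher by at least 1 on both. The median was 1.34 on the first PP slide and 2 on the second. Without the second Treg array, or without the first TFR array, 0 members were called, without the second TFR array 8, and without the whole first slide 13. With the slide as a random block the number was 42.

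B-cell markers were unequal among the arrays of the first PP slide. The summed intensity of 13 B-cell markers there was 477817 in TFR, 281929 in Treg, 121012 in TFH GL7+ and 69259 in TFH GL7- cells, and that of 7 germinal centre B-cell markers 9391, 5371, 4519 and 2672. On the second slide the B-cell sums were 28295, 24864, 29242 and 12088 and the germinal centre sums 2197, 1055, 3815 and 3102. The sum of 7 epithelial markers was 5612 to 13220 on the first slide and 1043 to 2577 on the second. The sort gates left out cells with B220, a B-cell surface marker. The median of TFR minus Treg was 1.34 on the first slide and 2 on the second, and the part of these cells in it was not tested.

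**Figure D4:**
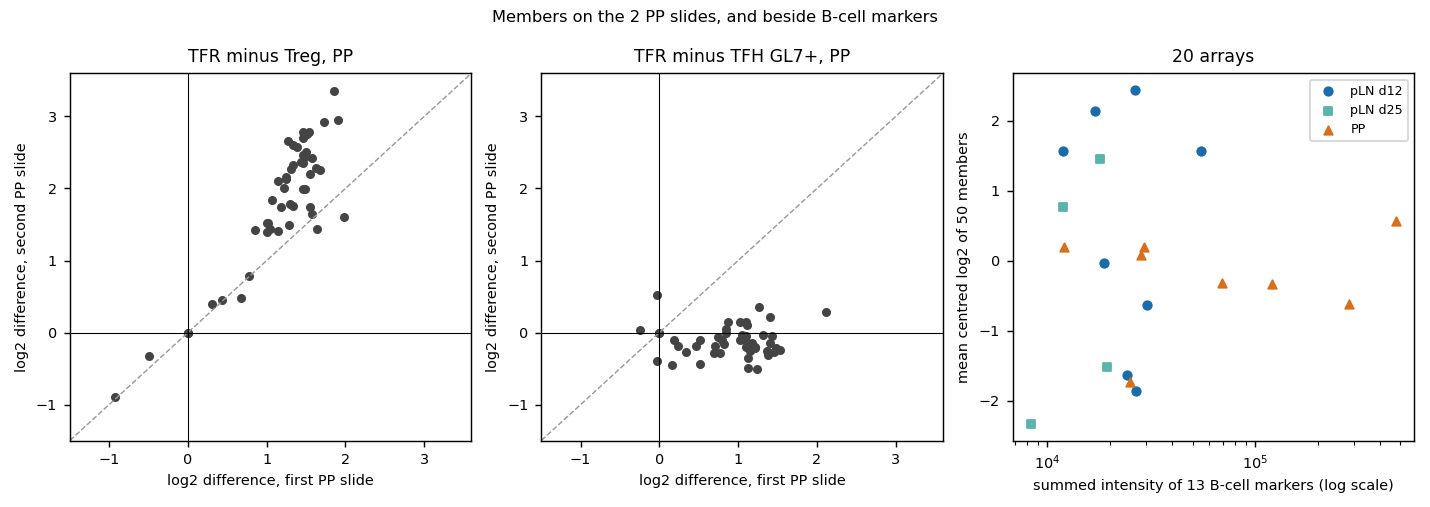
Left and middle, the log2 difference of each of the 50 genes on the first PP slide (x axis) against the second (y axis) for TFR minus Treg and TFR minus TFH GL7+, with a dashed line of equal values. Right, the mean centred log2 value of the 50 genes on each of the 20 arrays against the summed intensity of 13 B-cell markers (log axis): TFR minus Treg is above 0 on both slides for 46 genes, TFR minus TFH GL7+ mostly on the first slide alone, and the PP arrays of the first slide lie farthest to the right.

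Between PP TFR and PP TFH GL7+ cells the slides disagreed. Over both, 0 members were called, against 2.34% of tested probes called higher and 1.09% called lower, with 1 member at an unadjusted p under 0.05 by limma (11.4% of tested probes), and the median was 0.46 (-0.05 over all tested probes). On the first slide the median was 1.07 and 45 members were above 0, whereas on the second it was -0.13 and 10 members were above 0. Altogether 37 members were higher in TFR cells on the first slide and lower on the second, and both TFR arrays were above both TFH GL7+ arrays in 5 members, against 14.2% of all tested probes. Ncapg, a condensin subunit, read 86.21 and 62.52 in TFR and 20 and 51.66 in TFH GL7+ cells (1.19, adjusted p = 0.2639), and the first TFH GL7+ array was not well above background. On the first slide the B-cell marker sum was 477817 in TFR and 121012 in TFH GL7+ cells, and its part in the difference was not tested.

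PP TFH GL7+ cells were above PP Treg cells in 7 called members and below in 1, against 5.26% and 4.62% of tested probes called higher and lower. The 7 were Cdc25b (2 ± 0.47, adjusted p = 0.01901), Mki67 (2.12 ± 0.55, adjusted p = 0.02836), Bub1b (1.44), Kif22 (1.45), Anln (1.36), Kif20a (1.28) and Ncapd2 (1.41 ± 0.31, adjusted p = 0.01371). Smc4 was the member called lower, with 14410 and 16480 in TFH GL7+ cells against 26900 and 44070 in Treg cells (-1.16 ± 0.34, adjusted p = 0.04763). The median was 1.29 (0.03 over all tested probes), but 0.26 on the first slide and 2.06 on the second. The Treg arrays differed between the slides: Ccna2, which encodes cyclin A2, read 3086 and 499.1 in Treg and 3111 and 3904 in TFH GL7+ cells. Without the first Treg array 28 members were called, without the second 0, without the first or second TFH GL7+ array 2 and 1, and without the whole first slide 18.

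No difference was measurable with GL7. Between PP TFH GL7+ and GL7- cells 0 members were called, against 0% of tested probes called higher and 0.00898% called lower, and 0 had an unadjusted p under 0.05 by limma (1.14% of tested probes), while the methods' t-test gave 1 member at an unadjusted p under 0.05 and 0 after Benjamini-Hochberg. Differences ranged from -0.57 to 0.52 with a median of 0, and the median was -0.03 and 0.03 on the 2 slides. Mki67 read 3195 and 4841 in GL7+ cells and 2674 and 3606 in GL7- cells, where the groups overlapped. A small difference could not be shown with 2 arrays a group, since the error of a single gene (0.55 for Mki67) is larger than most of these values.

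Against pLN at d12, the members were lower in PP follicular cells. In TFR cells 40 of 50 were called lower in PP and 0 higher, against 5.39% of tested probes called lower and 5.74% called higher, with a median of -2.17 (0 over all tested probes). In TFH GL7+ cells 16 were called lower and 0 higher, against 2.18% and 2.36%, with a median of -1.88 (0.03 over all tested probes) and 43 at an unadjusted p under 0.05, against 19.6%. All 16 were among the 40. In Treg cells 0 were called, against 0.422% of tested probes called lower and 1.82% called higher, with a median of -0.92 (-0.05 over all tested probes, and -0.26 without the second PP Treg array or -1.6 without the first) and 14 members at an unadjusted p under 0.05 by limma, against 14.6%.

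Cdca3, an adaptor that helps cells enter mitosis, fell most in both: it read 5589 and 5846 in pLN TFH and 721.5 and 1354 in PP TFH GL7+ cells (-2.53 ± 0.53, adjusted p = 0.02314), and 12150 and 8518 in pLN TFR and 1665 and 1179 in PP TFR cells (-2.86 ± 0.53, adjusted p = 0.0059). Sgol1, the shugoshin that guards cohesin at centromeres, fell by 2.28 ± 0.45 in TFH (adjusted p = 0.01814) and by 2.78 ± 0.45 in TFR cells (adjusted p = 0.00312). In neither gene did PP and pLN arrays overlap. In TFR cells Ccnb2 (cyclin B2) fell by 2.62 ± 0.63 (adjusted p = 0.01855) and Kif22, a chromosome-bound kinesin, by 2.6 ± 0.42 (adjusted p = 0.003231). In TFH cells Kif20a fell by 1.94 ± 0.36 (adjusted p = 0.01463) and Mad2l1 by 1.5 ± 0.28 (adjusted p = 0.01368). In TFH cells 5 of 6 cytokinesis, 3 of 6 kinetochore, 2 of 4 checkpoint and 2 of 9 spindle motor genes were called. So were 2 of 8 chromosome structure, 1 of 9 kinase and cyclin, 1 of 5 APC and 0 of 3 passenger genes. In TFR cells the counts were 6, 5, 4, 8, 6, 6, 3 and 2 in the same order. Role medians were -2.07 to -1.58 in TFH and -2.36 to -1.83 in TFR cells, and whether roles differ was not tested.

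Cdc25b, Pttg1 and Smc4 did not follow. Pttg1 differed by -0.07 in TFH and -0.22 in TFR cells and Smc4 by -0.04 and -0.11, and none of these was called. Cdc25b read 17840 and 10470 in PP TFH GL7+ and 19270 and 9087 in pLN TFH cells (0.05). In PP TFR and pLN TFR cells Cdc25b read 17430 and 7998, and 12250 and 10170 (0.08). Its sign turned in both with scaling to the 75th percentile alone (-0.05 and -0.21). It was lower in Treg cells of either tissue (4512 and 3641 in pLN, 4424 and 2633 in PP). Cdc25b thus overlapped between the tissues in both kinds of follicular cell, whereas Foxm1, at 206.4 and 275.7 in PP TFH GL7+ cells and 807.2 and 757.4 in pLN TFH cells, did not overlap.

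**Figure D5:**
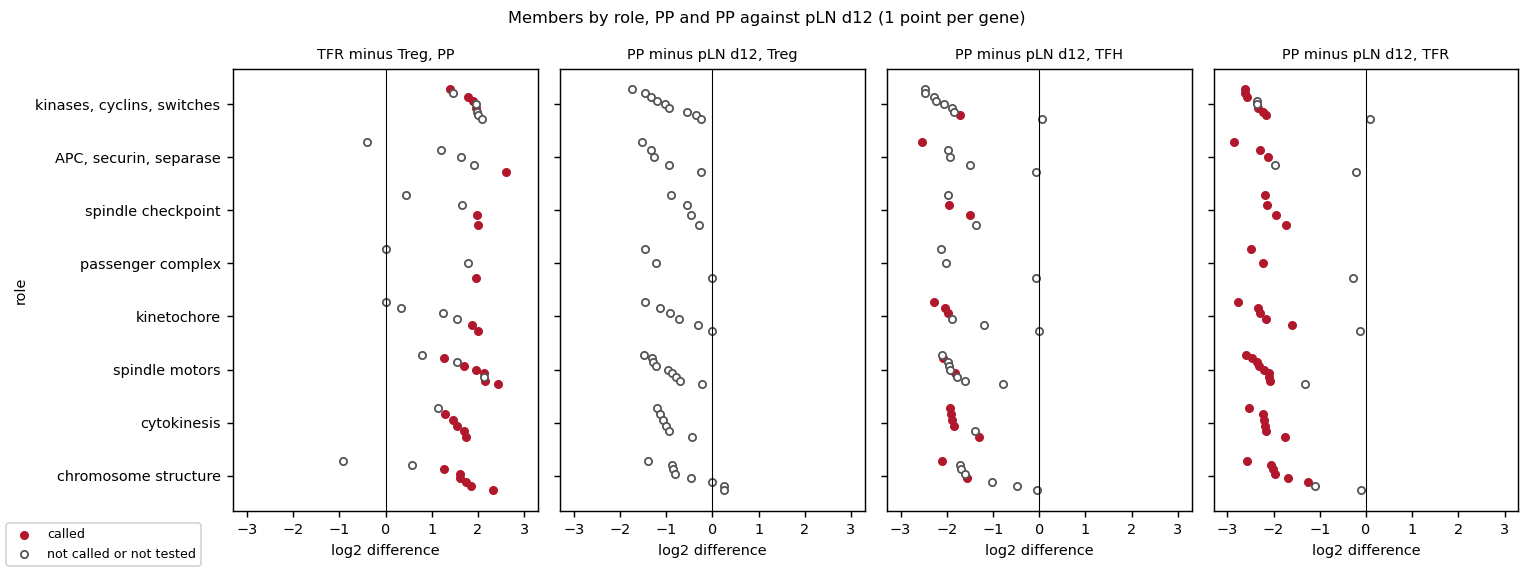
Log2 differences of the 50 genes (1 point each) by role for TFR minus Treg in PP and for PP minus pLN d12 in Treg, TFH (GL7+) and TFR cells, with filled points for called genes and open points for genes that were not called or not tested. TFR minus Treg is mostly to the right of 0 (median 1.69), and PP minus pLN lies to the left, with medians of -0.92, -1.88 and -2.17.

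Slide and tissue cannot be told apart in these comparisons, and the counts depend on how slides are treated. With the slide as a random block (correlation 0.742) 0 members were called in TFH and 11 in TFR cells. Without the first PP slide 0 were called in TFH cells, with a median of -1.5, and the median in TFR cells was -2.47. Leaving out 1 array gave 0 to 6 called members in TFH cells, with 0 without the second pLN or the first PP array, 1 without the first pLN array and 6 without the second PP array. In TFR cells it gave 11 without the first pLN array, 21 without the second, and 15 without the second PP array. The B-cell marker sums of the first PP slide were above those of every pLN array, and their part in these differences was not tested.

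Whether the step from Treg to TFR cells is smaller in PP than in pLN was tested as a difference of differences, in which slide offsets cancel. The median over the members was -1.19 (0.03 over all tested probes), -0.51 without the first PP Treg array and -1.85 without the second, and 48 of 50 were below 0, but 1 member was called, against 0.202% of tested probes called lower and 0.346% called higher, and 9 had an unadjusted p under 0.05, against 8.17%. That member was Smc2, which rose from 1605 and 1527 to 6058 and 5056 in pLN and from 1580 and 1533 to 2514 and 2142 in PP. The difference was -1.25 ± 0.23 (adjusted p = 0.04803). Foxm1 (-1.68, adjusted p = 0.2183) and Mad2l1 (-1.49, adjusted p = 0.175) did not pass. With the slide as a random block 6 were called and with the slide as a fixed block 4, and 0 were called without any 1 of the 8 arrays. For TFR minus TFH the tissue difference had a median of -0.36 (-0.64 to -0.06 without 1 array) with 0 members called and 1 at an unadjusted p under 0.05 by limma (6.49% of tested probes), against 0.139% of tested probes called lower and 0.472% called higher.

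A set of 4 members did not share the rise of the others. Pttg1 was brightest in Treg and naive cells and lower in TFH and TFR cells of pLN at d12 (10390 and 12760 in TFR, 14640 and 16260 in Treg cells), without a called difference in any of those comparisons. Smc4 was likewise higher in Treg cells of PP than in TFH or TFR cells. Aurkb reached 29.64 and Cenpf 23.96 at most on any array, just above the floor, so that their probes gave no usable level. A probe that does not see the transcript and a transcript that is absent cannot be told apart here. For 15 members the array held 20 further probes, 14 of them tested, and 13 of these followed the probe used with r of at least 0.75, the exception being the second probe of Pttg1.

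Other lists of cell cycle genes are given for comparison. Of 78 other mitosis genes, 58 were called higher in TFH than in naive cells and 0 lower, with a median of 2.90, against 9.27% and 5.48% of tested probes. From Treg to TFR cells 59 were called higher in pLN (median 2.53, against 5.79% of tested probes) and 15 in PP (6.23%). Called lower in PP than in pLN were 31 in TFH cells (2.18% of tested probes) and 52 in TFR cells (5.39%). The highest of them from naive to TFH were Kif15, a spindle kinesin (5.51, at least 16.5-fold), and Pimreg (5.46, at least 20.4-fold), and the lowest was Stag2, a cohesin subunit (-0.46, not called). Of 40 G1/S and replication genes, 26 rose from naive to TFH (median 1.64) and 29 from Treg to TFR cells (median 1.91), against the same 9.27% and 5.79%, with Tk1, thymidine kinase, at 4.64 and Dtl at 4.63, and 28 were lower in PP than in pLN TFR cells (5.39%). The replication genes thus mostly had the signs of the mitosis genes, with smaller medians.

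The genes that regulate the cycle itself were less uniform. Of 13 G1 cyclins and CDK inhibitors, 5 were called higher and 1 lower from naive to TFH cells, against 9.27% and 5.48% of tested probes, with a median of 0.20. Cdkn1a (p21) rose from below background (4.61, at least 9.12-fold), and Cdkn2d (p19) fell by 1.12 on the log2 scale (adjusted p = 0.007307). Cdkn2a, which encodes the inhibitor p16 and ARF, had a mean of 2241 ± 118 (SD, n = 2) in pLN TFR, 254.8 ± 117.1 in pLN Treg and 86.73 ± 32.21 in PP TFR cells, with differences of 3.22 for TFR minus Treg in pLN (adjusted p = 0.003514) and -4.74 for PP minus pLN TFR cells (adjusted p = 0.0005324). Cdkn2b (p15) had differences of 3.49 and -2.56 in the same comparisons. Of 14 genes of the DREAM and MuvB complexes, 2 rose from naive to TFH, Mybl2 (B-MYB, 3.29) and Tfdp1 (1.30), which is a share near the background of 9.27%, with a median of 0.06, and Mybl2 was lower in PP than in pLN TFR cells (-2.30, adjusted p = 0.02643).

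By likeness over all 20 arrays, the named genes outside the list closest to the mean of the members included E2f8, Aunip, Shcbp1 and Ncaph (r = 0.992 each), Rad51ap1 and Ska1 (0.991), Cenpk and Rrm2 (0.99) and Trip13 (0.989). E2f8 is a repressor of the E2F family, Ncaph a condensin subunit, Rrm2 a subunit of ribonucleotide reductase and Trip13 an ATPase that disassembles checkpoint complexes. E2f8 had group means on the log2 scale of 12.65 in pLN TFR, 11.68 in pLN TFH, 9 in pLN Treg and 7.10 in naive cells at d12, and of 10.32 in PP TFR and 8.11 in PP Treg cells. It was picked for its likeness to the members on these same arrays, so that sharing their order follows from that choice.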

How the data were processed

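RNA of sorted CD4 T-cell pools was hybridised to Agilent 1-colour mouse arrays, 20 in all. The deposited scanner files hold background-corrected intensity values from Agilent Feature Extraction 10.7.3.1, not normalised between arrays, with 4 features a probe. A deposited series matrix holds the intensities that the authors normalised, on a linear scale, and these were taken to log2 here. RNA input was 50 ng for the first d12 and PP arrays and 40 ng for the others. The probe annotation names mm9, and the promoter windows are those of RefSeq on GRCm38.p6.

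Following the study's methods, features flagged by the scanner, or beyond 1.42 times the interquartile range or with a pixel variation over 0.5, were left out (13230 to 19398 of 157716 features an array). The geometric mean of the remaining features was quantile normalised, scaled to a common 75th percentile, floored at 20 and taken to log2. The rebuilt values differed from those of the authors by a median of 0.0347 to 0.0362 log2. A probe was detected where at least 3 of 4 features were well above background, and was tested where both arrays of at least 1 group of 2 detected it.

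All 12 group means were fitted on the 20 arrays with limma 3.58.1 in R 4.3.3 (8 residual degrees of freedom, Benjamini-Hochberg over 22264 probes), for 17 comparisons. The d25 groups have 1 array each and are assumed to vary like the others. The F test called an F p under 0.001 with an adjusted p under 0.005. A fold against a group not well above background is a lower bound. It is taken on each array against the probe's own signal or the lowest signal detected there, whichever is higher. Counts of arrays limit the precision. The fit was tested on simulated data. The named genes were, for each comparison, the highest and lowest member of each role, the 5 largest differences, the 5 members least like the others and the 10 outside genes most like them (1 of these is not reported here), and genes shown beyond these were chosen after their values were seen. The members, the other lists and the tests were chosen with earlier results of these data known. Alternatives were another background correction (normexp), 75th percentile scaling alone, the authors' values, no filter on dim probes, the slide as a block, only the groups compared, no first PP slide and leaving out each array. Further experiments that the design text mentions were not analysed here.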

Additional observations from a re-analysis of the deposited data

Results flagged for a closer look

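Smc2, which encodes an ATPase of both condensin complexes, was the 1 member whose step from Treg to TFR cells differed between PP and pLN by a test of the difference itself. The difference of differences was -1.25 ± 0.23 on the log2 scale (limma, adjusted p = 0.04803): TFR minus Treg was 1.82 in pLN at d12 and 0.58 in PP, with both TFR arrays above both Treg arrays in each tissue. The median over the members was -1.19 and the lowest value -2.01. Smc2 had the smallest SD within groups of the tested members (0.116). Smc2 was still called with the slide as a random block (adjusted p = 0.002631) and with the slide as a fixed block (adjusted p = 0.009869). It was not called with 75th percentile scaling (-1.36, adjusted p = 0.05226), without the first PP slide (-1.34, adjusted p = 0.2315), when only the 4 groups were fitted (adjusted p = 0.2439) or without any 1 of the 8 arrays.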

How the results depend on the processing

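The count of called members from naive to TFH cells stayed at 42 to 45 in every alternative, and leaving out 1 array gave 43 to 44, while the median of 3.74 became 2.91 with normexp correction. Other counts moved. From Treg to TFR cells in pLN the count was 12 when only those groups were fitted and 24 to 42 without 1 array. For Treg minus naive it was 1 without the filter on dim probes, 32 with the slide as a random block, 16 without the first PP slide, 0 when only those groups were fitted and 0 to 4 without 1 array. TFR minus TFH at d12 gave 1 with normexp correction and 1 with the slide as a random block. In PP, TFR minus Treg gave 3 without the filter, 42 with the random block, 13 without the first slide, 0 when only those groups were fitted and 0 to 36 without 1 array, and TFH GL7+ minus Treg gave 1, 26, 18 and 0 in these settings and 0 to 28 without 1 array. For PP minus pLN the Treg count was 3 without the first PP slide and 0 to 4 without 1 array. The TFH count was 26 with normexp, 7 without the filter, 0 with the random block, 0 without the first slide, 0 when only those groups were fitted and 0 to 6 without 1 array. The TFR count was 26, 11 and 11 without the filter, with the random block and with only those groups, and 11 to 28 without 1 array. The tissue difference in TFR minus Treg gave 0 with 75th percentile scaling, 6 with the random block, 0 without the first slide, 0 with only those groups and 0 without any 1 array. The F test called 25 without the first slide. Fitting fewer groups or arrays leaves fewer residual degrees of freedom, and the cause of the other changes was not tested.

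The labels give no replicate numbers, so that arrays were paired by slide, which the file headers give and which holds 1 array of each group of a tissue. With the slide as a fixed replicate block the count was 22 for Treg minus naive, 1 for TFR minus TFH in pLN, 19 for TFH GL7+ minus Treg in PP and 4 for the tissue difference in TFR minus Treg.

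The sign turned for Cdc25b, whose differences were near 0, and Kif23 reached 0. Without single arrays, Kif23 ranged from 0 to 0.40 for TFH minus naive, the 0 being without the second TFH array, and Cdc25b from -0.79 to 0.30 for TFR minus TFH in pLN, the 0.30 being without the first TFH array. Cdc25b, PP minus pLN, was -0.05 in TFH and -0.21 in TFR cells with 75th percentile scaling, -0.34 and -0.48 without the first PP slide, and -0.50 to 0.59 in TFH and -0.48 to 0.64 in TFR cells without single arrays. Probes near background limit the precision of Ttk, Ncapg, Kif4 and Ckap2.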
